A study of Ovis aries with 40 samples.

Results

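Proximal lung of fetal sheep at 80 days of gestation was compared with proximal lung at 65 days, with the aim of describing the change that animals with and without CFTR shared. The comparison used 8 of the 40 libraries of the series, which are all libraries whose titles place them in proximal lung at 1 of these 2 ages. They form 4 groups of 2 libraries, WT at day 65, WT at day 80, CF at day 65 and CF at day 80, and each library carries the label of a different animal. Samples were pieces of frozen tissue, so RNA of all lung cell types was sequenced together, although the labels call the source epithelial tissue.

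All animals were American Romney sheep (Ovis aries), and the ewes of both genotypes received EstruMate, a prostaglandin analogue. The WT fetuses came from natural mating. The CF fetuses were CFTR-/- and were made by somatic cell nuclear transfer from a male fetal fibroblast line with CFTR targeted in exon 2, so that they represent 1 cell line, and their recipient ewes also carried SYNCRITE vaginal sponges. CFTR encodes the chloride and bicarbonate channel that is lost in cystic fibrosis. The sex of the WT fetuses is not given in the sources used here. Genotype therefore coincides with the way the fetuses were made, and also with sequencing depth, and these cannot be told apart. In WT at day 80 and in both CF groups the 2 animal labels share their first part, and whether such animals were littermates is not stated. Age, by contrast, was compared within each genotype. In CF, however, both labels of an age share their first part, so age and that part of the label cannot be told apart there. The labels of the 8 animals hold 5 different first parts.

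In the pseudoglandular stage of lung development the airway tree branches and its tips are lined by progenitor cells, and in the canalicular stage that follows the distal tubes widen, capillaries approach them and the first alveolar cells appear. Alveolar type 2 cells make surfactant, a film of lipid and of the surfactant proteins A, B, C and D that keeps air spaces from collapsing, and alveolar type 1 cells are flat and carry gas exchange. In the larger airways basal, secretory, ciliated and neuroendocrine cells mature over the same period of gestation.

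The 4 WT libraries held 25301277 to 36383484 counted reads and the 4 CF libraries 90914366 to 100338555. The share of reads on mitochondrial genes was 1.72% to 2.36%. The 2 libraries of a group differed by 0.66 to 0.98 in log2 CPM (CPM being counts per 1000000 reads; root mean square over genes), which was as large as the difference between the means of the 2 ages, 0.66 in WT and 0.53 in CF. The first principal component held 40.6% of the variance and separated the genotypes. CF day 80 replicate 1 stood apart on the third component, at -82.7 against -13.9 to 42.2 in the other 7 libraries, and the main results that lean on it are also given without it. Markers of proximal lung did not set these libraries clearly apart from the distal libraries of the same animals. COL2A1, the collagen of cartilage, was 308 to 418 CPM in proximal and 239 to 459 CPM in distal lung, and the basal cell factor TP63 was 0.220 to 18.6 CPM in proximal and 0.293 to 6.78 CPM in distal lung. Of the 8 markers examined, 6 were higher in the proximal piece in 5 of 8 animals.

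Between day 65 and day 80 the surfactant protein gene SFTPB rose 4.81-fold, and TMEM132C, a gene for a membrane protein, fell by 1.18 on the log2 scale. These were the only genes called of 19072 tested, by edgeR's quasi-likelihood test with genotype as a covariate and a Benjamini-Hochberg adjusted p up to 0.05, which is 0.0105% of all genes and 0.00524% in each direction. At the stricter limits of the study, an adjusted p up to 0.001 together with a log2 change of 0.58 in size, the same test called 0 genes. At an unadjusted p below 0.05 there were 1191 genes (6.24%), of which 619 were higher at day 80 (3.25%) and 572 lower (3%). DESeq2, run on the same filtered counts, called 229 of the 18332 genes to which it gave an adjusted p (1.25%), 130 higher (0.709%) and 99 lower (0.54%), and 53 of them met the limits of the study. The libraries of a group were few and varied widely, so most differences below are given as values, with the number of libraries that show them, and the words rose and fell are kept for genes that passed the adjusted test.

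SFTPB encodes the hydrophobic surfactant protein B, which is needed for the surfactant film and for lamellar bodies, the organelles that store it, and it lies on chromosome 3 from 57216253 to 57228146 on the minus strand (Oar_v4.0). It was 31.2 and 67.7 CPM at day 65 and 261 and 210.1 CPM at day 80 in WT. The corresponding CF values were 47.8 and 39.7 CPM at day 65 and 225 and 201 CPM at day 80. All 4 libraries of day 80 lay above all 4 of day 65, as for 1.48% of all genes (1.16% in the other direction), and the WT and CF ranges overlapped at each age. The log2 fold change was 2.27 ± 0.22 (SE; edgeR adjusted p = 0.0393, n = 4 against 4), a rise of 4.81-fold, with 2.25 in WT and 2.28 in CF. Leaving out 1 library at a time gave log2 fold changes of 2.09 to 2.52. The call held without either WT library of day 65 and without CF day 80 replicate 1, and was lost (adjusted p = 0.119 to 0.258) without WT day 80 replicate 1 or 2, CF day 65 replicate 1 or 2, or CF day 80 replicate 2.

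TMEM132C lies on chromosome 17 from 47999321 to 48281819 on the minus strand. It was 39.2 and 44.5 CPM at day 65 and 22.7 and 19.7 CPM at day 80 in WT. CF libraries had 50.9 and 54.1 CPM at day 65 and 19.7 and 21.1 CPM at day 80. The day 80 libraries were again all beyond those of day 65, at 19.7 to 22.7 CPM. The log2 fold change was -1.18 ± 0.12 (SE; edgeR adjusted p = 0.0393), with -0.99 in WT and -1.37 in CF. In the fits without 1 library it was -1.26 to -1.11 and kept its call only without CF day 80 replicate 1.

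Genes of surfactant and of alveolar type 2 cells were mostly higher at day 80 in both genotypes. Of 17 members tested, 1 was called (SFTPB), 16 were higher at day 80, and the median log2 fold change was 0.69, against -0.00 over all genes tested. For 12 members both libraries of day 80 lay above both of day 65 in WT and again in CF, which held for 3.88% of all genes, and 0 members did so in the other direction, against 3.94%. At nominal limits, here an unadjusted p up to 0.001 together with a log2 change of 0.58 in size, 6 members were higher, against 0.21% of all genes, and DESeq2 called 11, against 0.709%. Without CF day 80 replicate 1 the median was 0.87.

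SLC34A2, the phosphate transporter of type 2 cells, was 59.6 and 108 CPM at day 65 and 245 and 333 CPM at day 80 in WT. In CF it was 104 and 83.1 CPM at day 65 and 318 and 522 CPM at day 80. In both genotypes the lowest library of day 80 was more than 2 times the highest of day 65. Its log2 fold change was 1.97 ± 0.24 (SE) and its adjusted p 0.0866. LAMP3, a membrane protein of lamellar bodies, was 347 and 391 CPM at day 65 and 643 and 689 CPM at day 80 in WT. The corresponding CF values were 253 and 227 CPM at day 65 and 489 and 637 CPM at day 80. Its log2 fold change was 1.04 ± 0.13 (SE, adjusted p = 0.0866), and all day 80 libraries exceeded all day 65 libraries. Without CF day 80 replicate 1 both SLC34A2 and LAMP3 were called (adjusted p = 0.0407 each).

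SFTPC, the gene of surfactant protein C, was 213 and 436 CPM at day 65 and 774 and 978 CPM at day 80 in WT. CF libraries had 213 and 148 CPM at day 65 and 967 and 654 CPM at day 80. The ages did not overlap, although the WT libraries of day 65 differed widely from each other. Its log2 fold change was 1.80 ± 0.28 (SE, adjusted p = 0.116). SFTPD, which encodes surfactant protein D, a collectin that binds microbes, was low at day 65. It was 0.685 and 2.26 CPM at day 65 and 6.28 and 6.81 CPM at day 80 in WT, and 3.51 and 2.36 CPM at day 65 and 25.3 and 26.1 CPM at day 80 in CF, with both CF libraries of day 80 above both WT libraries of that age. Its log2 fold change was 2.66 ± 0.38 (SE, adjusted p = 0.109), 2.15 in WT and 3.13 in CF, and the difference between the 2 had an unadjusted p of 0.186. SFTPA1, the gene of the other collectin of surfactant, was low, at 0.105 and 0.44 CPM at day 65 and 0.832 and 1.14 CPM at day 80 in WT, and 0.498 and 0.0924 CPM at day 65 and 4.41 and 2.98 CPM at day 80 in CF (log2 fold change 2.84 ± 0.69 SE, adjusted p = 0.393).

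CTSH, a protease that processes surfactant proteins B and C, had a log2 fold change of 1.11 ± 0.21 (SE), and MUC1, a mucin of the apical membrane, one of 1.02 ± 0.22. ABCA3, which pumps phospholipid into lamellar bodies, was 11 and 12.2 CPM at day 65 and 15.2 and 16.8 CPM at day 80 in WT, and 17.7 and 20.6 CPM at day 65 and 26.3 and 23.9 CPM at day 80 in CF, with a log2 fold change of 0.42 ± 0.12. The kinase gene LRRK2, the lysosomal gene DRAM1 and HHIP, an inhibitor of hedgehog signals, had values of 0.60, 0.69 and 0.41. Separation in both genotypes was seen for each of these 6 genes and was not seen for SFTA2, LPCAT1, NAPSA, CEBPA and SLC6A14. LPCAT1, an enzyme of surfactant lipid synthesis, was the 1 member with a negative value, -0.22 ± 0.17 (-0.07 without CF day 80 replicate 1), and CEBPA, a transcription factor of type 2 cells, spread from 6.54 to 29.1 CPM within WT day 80 alone.

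**Figure D1:**
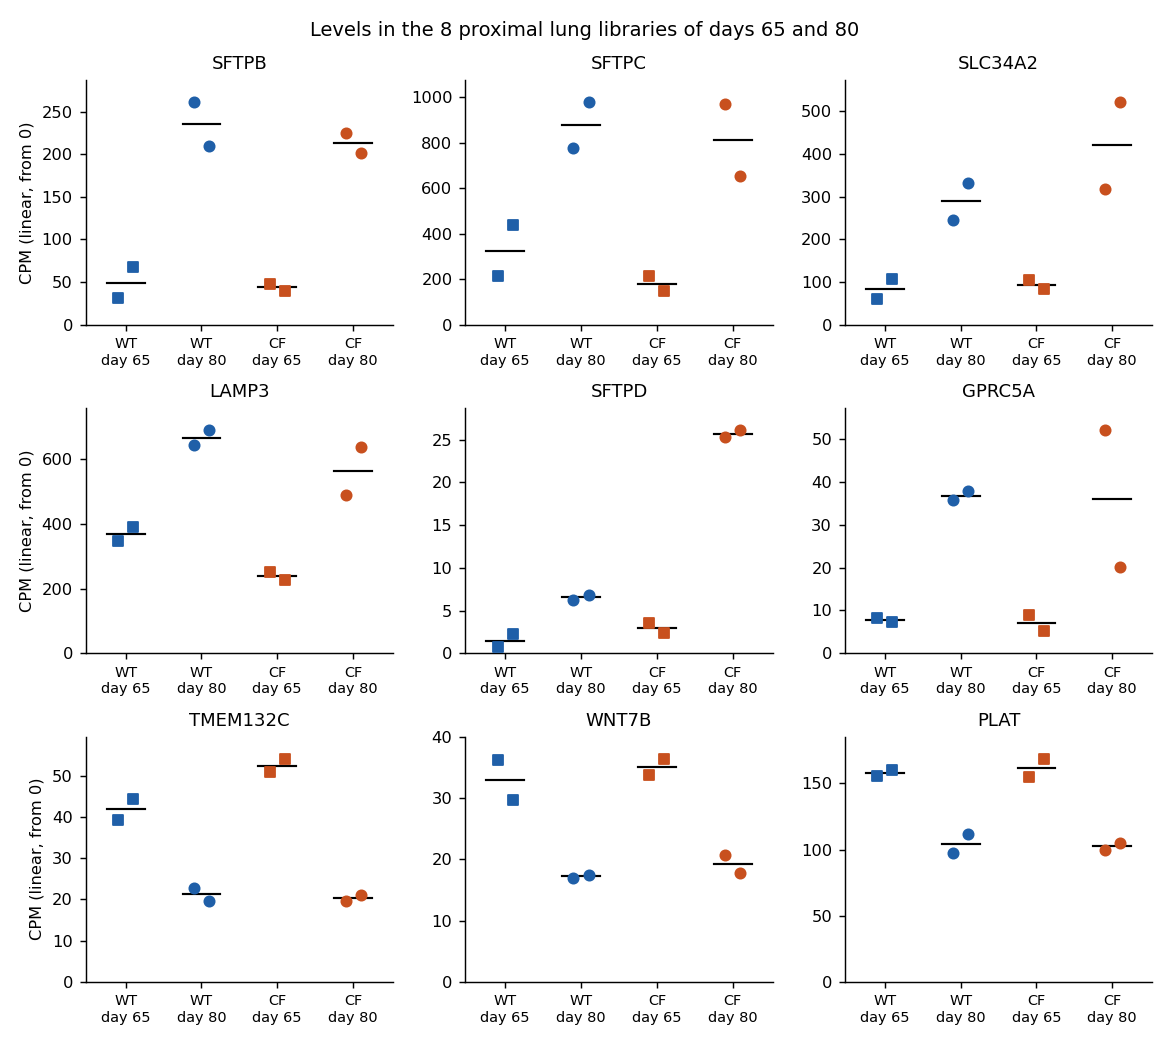
Each panel plots 1 gene in the 8 proximal lung libraries, with CPM on a linear axis from 0, squares for day 65, circles for day 80, blue for WT, orange for CF and a line at the mean of 2 libraries. SFTPB was 31.2 to 67.7 CPM at day 65 and 201 to 261 CPM at day 80, TMEM132C was 39.2 to 54.1 CPM and 19.7 to 22.7 CPM, and in all 9 panels the ages do not overlap within a genotype.

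Genes known from alveolar type 1 cells were also mostly higher at day 80. Of 18 members tested, 16 were higher with a median log2 fold change of 0.56, 7 were separated upward in both genotypes (3.88% of all genes) and 1 downward (3.94%). DESeq2 called 5 of them higher and 1 lower, against 0.709% and 0.54% of all genes. edgeR's adjusted test called 0, with 9 higher and 1 lower at an unadjusted p below 0.05, against 3.25% and 3%. Without CF day 80 replicate 1, which held the highest value of several of these genes, the median was 0.33.

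GPRC5A, an orphan receptor induced by retinoic acid, was 8.32 and 7.32 CPM at day 65 and 35.7 and 37.8 CPM at day 80 in WT. In CF it was 8.89 and 5.12 CPM at day 65 and 52 and 20.02 CPM at day 80. The ages were apart in both genotypes, with a log2 fold change of 2.30 ± 0.30 (SE, edgeR adjusted p = 0.0926). Without CF day 80 replicate 1 it was 1.95 and was called (adjusted p = 0.0407). MALL, a membrane raft protein, was 8.85 and 7.68 CPM at day 65 and 17.3 and 24 CPM at day 80 in WT, and 9.34 and 5.91 CPM at day 65 and 28 and 16.9 CPM at day 80 in CF (log2 fold change 1.44 ± 0.22 SE). AQP5, the water channel of type 1 cells, was 0.369 and 0.66 CPM at day 65 and 2.27 and 1.2 CPM at day 80 in WT. The corresponding CF values were 0.581 and 0.434 CPM at day 65 and 6.24 and 1.35 CPM at day 80. It was low in each of these libraries of days 65 and 80, and its log2 fold change was 2.36 ± 0.56 (SE, adjusted p = 0.393), and 1.61 without CF day 80 replicate 1.

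CLDN18, a claudin of alveolar tight junctions, was 50.5 and 54.7 CPM at day 65 and 55.8 and 83.7 CPM at day 80 in WT. CF libraries had 18.1 and 12.4 CPM at day 65 and 58.3 and 48.2 CPM at day 80. In CF all libraries of day 80 were well above those of day 65, whereas in WT the first library of day 80 was close to day 65. HOPX, a homeobox gene of type 1 cells, had a log2 fold change of 0.75 ± 0.19 (SE) and was separated in both genotypes. IGFBP2, which binds insulin-like growth factors, went the other way and was 67.6 and 91 CPM at day 65 and 59.1 and 54.5 CPM at day 80 in WT, and 148 and 121 CPM at day 65 and 52.5 and 60.4 CPM at day 80 in CF (log2 fold change -0.87 ± 0.18 SE, adjusted p = 0.308). AGER and PDPN did not separate the ages, with log2 fold changes of 0.67 ± 0.39 and 0.76 ± 0.36. Both were highest in CF day 80 replicate 1, and without it the values were 0.08 and 0.31.

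WT and CF libraries share no animal, so the change in 1 genotype is a separate measurement of the change in the other, although the fit estimates their spread together. Over all 19072 genes the 2 changes had the same sign in 53.9%, with a Pearson's r of 0.15 across genes, and over the 14197 genes whose average log2 CPM reached 1 in 54%, with r = 0.35. Genes are not independent replicates, and all WT values share the WT libraries, so no test is given. Genes that stood out in 1 genotype were then read in the other. Of 9 genes higher in WT at the nominal limits (0.0472% of all genes), 8 were higher in CF, with a median CF log2 fold change of 0.58, and of 7 lower genes (0.0367%) 5 were lower in CF. Of 18 genes higher in CF (0.0944%), 13 were higher in WT with a median of 0.80, and all 7 lower in CF (0.0367%) were lower in WT with a median of -0.49. Tested alone, neither genotype gave a call at an adjusted p of 0.05, with 808 genes in WT (4.24%) and 727 in CF (3.81%) at an unadjusted p below 0.05.

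**Figure D2:**
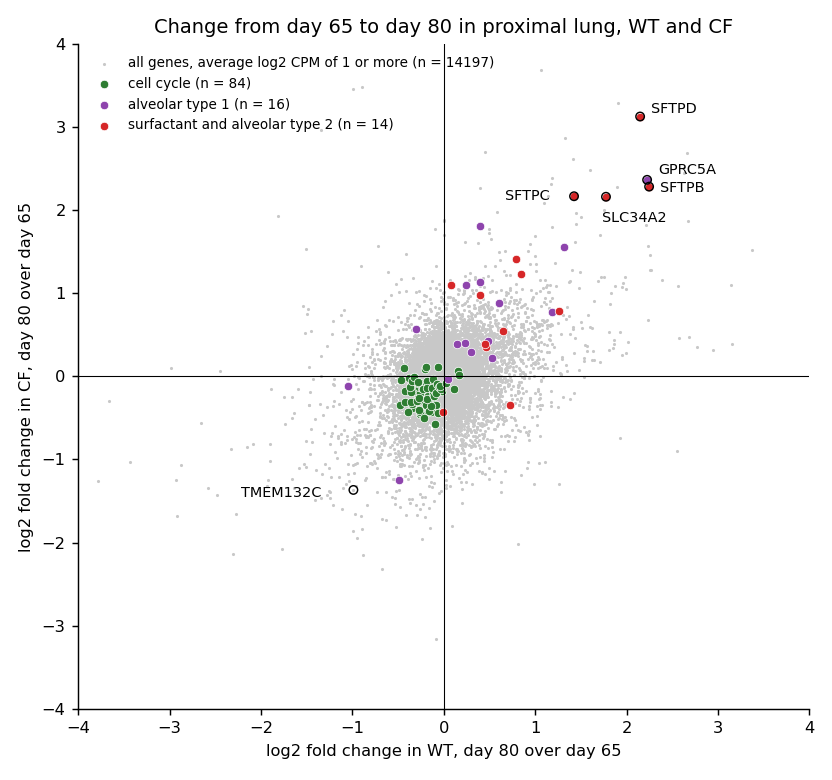
The log2 fold change of each gene in WT (horizontal axis) is plotted against that in CF (vertical axis), day 80 over day 65, for 14197 genes whose average log2 CPM reached 1 (grey) and for members of 3 gene lists (coloured). SFTPB lies at 2.25 and 2.28 and TMEM132C at -0.99 and -1.37, and the cell cycle genes form a compact group at small negative values in both genotypes.

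Beside these genes, genes of epithelium in general were higher too. All 23 members tested (EPCAM, CDH1, claudins, keratins and epithelial splicing factors among them) had a positive value with a median of 0.37, and 8 were separated upward in both genotypes, against 3.88% of all genes. Their summed level was 1921 and 1842 CPM at day 65 and 2190.5 and 2234 CPM at day 80 in WT, and 1787 and 1568 CPM at day 65 and 2743 and 1804 CPM at day 80 in CF. In WT the ages did not overlap, and CF day 80 replicate 1 was far above the other 3 CF libraries while replicate 2 was close to day 65. Without CF day 80 replicate 1 the median was 0.22, with 21 higher and 2 lower. EPCAM, an adhesion protein of epithelial cells, was 175 and 169.9 CPM at day 65 and 226 and 221 CPM at day 80 in WT, and 113 and 98.1 CPM at day 65 and 162 and 118 CPM at day 80 in CF (log2 fold change 0.39 ± 0.11 SE). PRSS8, a membrane protease that activates the epithelial sodium channel, had a log2 fold change of 0.69 ± 0.16 (SE, adjusted p = 0.384).

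In bulk tissue a larger share of epithelial cells and more RNA of a gene per cell cannot be told apart, and the part of the epithelial share in the surfactant result was not tested. The sizes can be set side by side. Per 1000 CPM of the 23 epithelial genes, SFTPB was 16.3 and 36.7 in WT at day 65, 119 and 94.04 in WT at day 80, 26.7 and 25.3 in CF at day 65 and 81.9 and 112 in CF at day 80, so the ages stayed apart on this scale in each genotype. LAMP3 on the same scale was 181 and 212, then 294 and 308 in WT, and 141 and 145, then 178 and 353 in CF, again without overlap.

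Genes of the epithelial tip and of lung endoderm were 17 of 21 higher, with a median of 0.20 that was 0.09 without WT day 80 replicate 1. The gene CPM, for a carboxypeptidase found on alveolar epithelium, was separated in both genotypes with a log2 fold change of 0.64 ± 0.15 (SE), as was ETV5, a target of FGF signals at the tips, with 0.29 ± 0.08, and GRHL2, an epithelial transcription factor, with 0.41 ± 0.12. NKX2-1, the lung lineage factor, was 63.4 and 76.1 CPM at day 65 and 105 and 69.4 CPM at day 80 in WT, and 81.4 and 73.5 CPM at day 65 and 131 and 81.4 CPM at day 80 in CF, so the ages overlapped in WT, and in CF they met (log2 fold change 0.39 ± 0.18 SE, and 0.23 without CF day 80 replicate 1). SOX9, of the distal tip, and SOX2, of the airway stalk, had log2 fold changes of 0.22 ± 0.12 and -0.18 ± 0.17, which were 0.10 and -0.30 without CF day 80 replicate 1.

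Lists of ciliated, secretory and basal cells had positive medians. The 35 genes of motile cilia were higher in 34 cases with a median of 0.55, and 0 were separated upward in both genotypes, against 3.88% of all genes. FOXJ1, the master regulator of motile cilia, was 28.4 and 7.59 CPM at day 65 and 19.4 and 45.9 CPM at day 80 in WT. In CF it was 40.1 and 38 CPM at day 65 and 69.5 and 42.9 CPM at day 80. WT day 65 replicate 2 held the lowest value, and the 2 ages overlapped in WT. The median of the list was 0.19 without that library, 0.17 without WT day 80 replicate 2 and 1.09 without WT day 65 replicate 1. In distal lung the same list had a median of -0.18.

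Among 17 airway secretory genes 15 were higher (median 0.52, and 0.81 without WT day 65 replicate 1) and 1, SCGB3A2, was separated upward in both genotypes, against 3.88% of all genes. SCGB3A2, a secretoglobin of early airway secretory cells, was 1.42 and 0 CPM at day 65 and 3.56 and 11.9 CPM at day 80 in WT. The corresponding CF values were 3.58 and 1.46 CPM at day 65 and 10.03 and 139 CPM at day 80. The log2 fold change was 4.28 ± 1.05 (SE, adjusted p = 0.393), and the 2 CF libraries of day 80 lay far apart. SCGB1A1, the club cell secretoglobin, did not exceed 0.515 CPM in any of the 8 libraries of days 65 and 80. WFDC2, an antimicrobial protein of airway epithelium, was 12.1 and 4.29 CPM at day 65 and 11.2 and 31.7 CPM at day 80 in WT, and 35.1 and 21.8 CPM at day 65 and 52.5 and 28.3 CPM at day 80 in CF (log2 fold change 0.93 ± 0.43 SE).

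Genes of basal cells, the stem cells of the large airways, had the largest positive median of any list, 1.26 over 8 members, with 1 separated upward in both genotypes, against 3.88% of all genes. KRT5, the basal keratin, was 1.16 and 0.495 CPM at day 65 and 0.643 and 7.11 CPM at day 80 in WT. CF libraries had 8 and 2.24 CPM at day 65 and 3.68 and 32.5 CPM at day 80. The second library of day 80 was high in each genotype and the first was not, so the ages overlapped in both. Without WT day 80 replicate 2 the median was 0.76, and in distal lung it was -1.09. Neuroendocrine genes had a median of -0.93 with 12 of 14 lower, and of -0.51 without CF day 80 replicate 1. The median was -0.31 in WT and -1.43 in CF, and 2 of the 14, CHGA and GRP, were separated downward in both genotypes, against 3.94% of all genes. CHGA, a granule protein of neuroendocrine cells, was 7.43 and 5.94 CPM at day 65 and 4.84 and 3.48 CPM at day 80 in WT, and 9.36 and 8.78 CPM at day 65 and 5.31 and 5.1 CPM at day 80 in CF (log2 fold change -0.75 ± 0.19 SE), and GRP, which encodes a neuropeptide, had a log2 fold change of -0.97 ± 0.41.

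**Figure D3:**
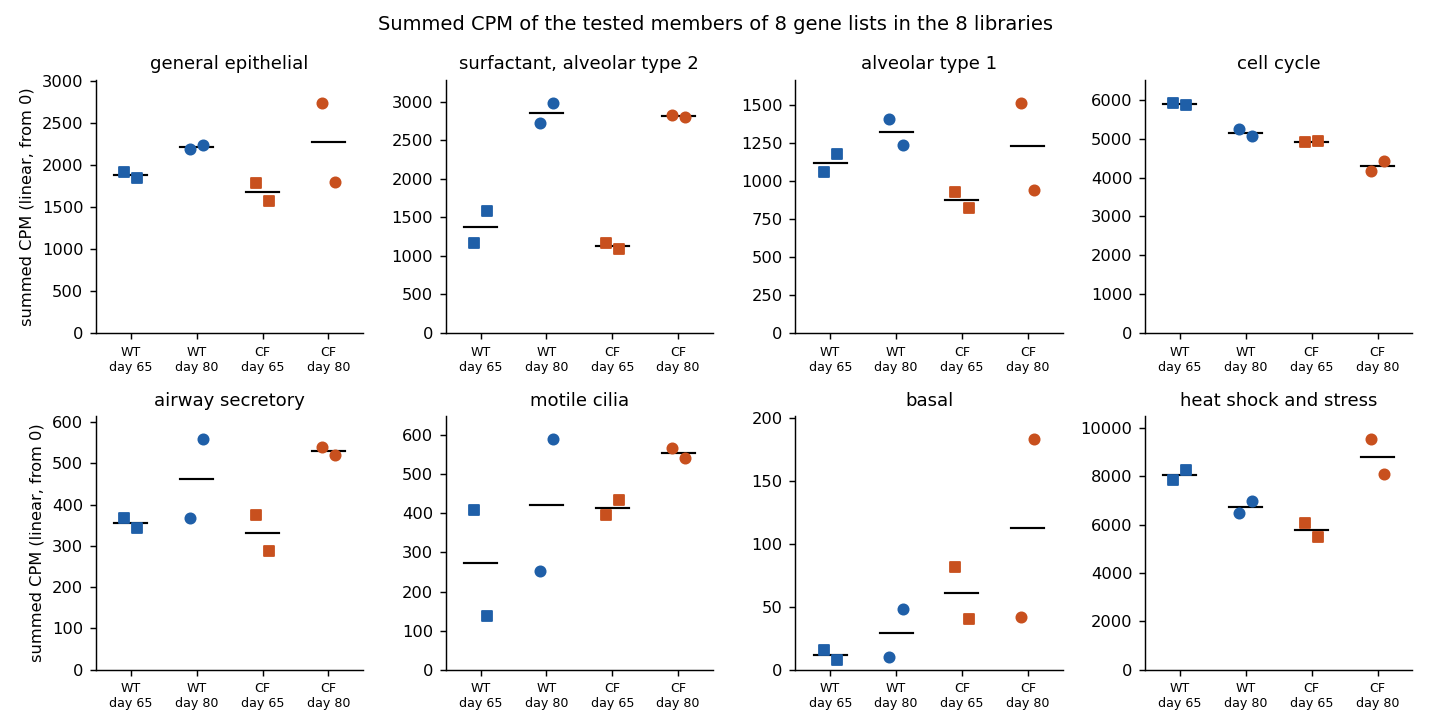
Each panel plots the summed CPM (linear axis from 0) of the tested members of 1 gene list in the 8 libraries, with squares for day 65, circles for day 80 and a line at the mean of 2 libraries. The surfactant and alveolar type 2 sum was 1092 to 1580 CPM at day 65 and 2722 to 2986 CPM at day 80, the cell cycle sum was lower at day 80 within each genotype, and the cilia sum in WT and the basal sum in both genotypes spread widely within day 80.

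Ion transport is of interest because CFTR was targeted in the CF animals. CFTR transcripts were counted in both genotypes and were 38 and 29.2 CPM at day 65 and 43 and 43.7 CPM at day 80 in WT, and 20.5 and 26 CPM at day 65 and 16.7 and 31.1 CPM at day 80 in CF. In CF the ages overlapped, and the log2 fold change was 0.20 ± 0.20 (SE, edgeR adjusted p = 0.98), 0.36 in WT and 0.04 in CF, and 0.40 without CF day 80 replicate 1. Counts over the whole gene do not show whether the transcript is intact in exon 2. SLC26A9, an apical anion transporter that interacts with CFTR, was 8.88 and 8.47 CPM at day 65 and 20.1 and 35.9 CPM at day 80 in WT. In CF it was 20.4 and 20.1 CPM at day 65 and 27 and 62.7 CPM at day 80. It was separated in both genotypes, with a log2 fold change of 1.41 ± 0.28 (SE, adjusted p = 0.293) and 1.67 with a call (adjusted p = 0.0407) without CF day 80 replicate 1.

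Of 22 ion and water transport genes tested 19 were higher, with a median of 0.28. The median was 0.62 in WT and 0.06 in CF, and 12 of the 22 were higher in both. Of these 22, 4 were separated upward in both genotypes, against 3.88% of all genes, and 3 were called higher by DESeq2, against 0.709%. The sodium channel subunits SCNN1A and SCNN1B, which absorb sodium from lung liquid, had log2 fold changes of 0.75 ± 0.40 and 0.45 ± 0.31 (SE) at levels under 5 CPM. SLC22A31, an orphan transporter, was 0.632 and 0.495 CPM at day 65 and 1.78 and 2.04 CPM at day 80 in WT, and 1.77 and 1.31 CPM at day 65 and 4.71 and 7.71 CPM at day 80 in CF (log2 fold change 1.89 ± 0.28 SE, adjusted p = 0.11). ATP1B1, a subunit of the sodium pump, had a log2 fold change of 0.13 ± 0.09. TJP1, a tight junction protein the study follows as well, was 189 to 235 CPM in all 8 libraries with a log2 fold change of 0.05 ± 0.10 (0.11 without CF day 80 replicate 1).

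Cell cycle genes were lower at day 80 by a small and even amount. Of 84 members 81 had a negative value and 76 were lower in both WT and CF, with a median of -0.22, and 36 were separated downward in both genotypes, against 3.94% of all genes, and 0 upward. edgeR called 0 of them, with 23 lower at an unadjusted p below 0.05, against 3% of all genes, and DESeq2 called 5 lower, against 0.54%. The summed level was 5925 and 5877 CPM at day 65 and 5238 and 5074 CPM at day 80 in WT, and 4909 and 4935 CPM at day 65 and 4164 and 4429 CPM at day 80 in CF. The ages did not overlap in either genotype, and in every fit without 1 library the median lay between -0.22 and -0.19. KIF23, a motor protein of cell division, was 60.2 and 58.1 CPM at day 65 and 46 and 47.2 CPM at day 80 in WT, and 64.8 and 65.1 CPM at day 65 and 47.7 and 52.5 CPM at day 80 in CF (log2 fold change -0.36 ± 0.08 SE). CCNB1, the cyclin of mitotic entry, was 65.7 and 62.4 CPM at day 65 and 50.5 and 50.3 CPM at day 80 in WT, and 58.7 and 56.2 CPM at day 65 and 47 and 44.6 CPM at day 80 in CF (-0.34 ± 0.08). TOP2A, the topoisomerase of dividing cells, was at 412 and 402 CPM at day 65 and 369 and 369 CPM at day 80 in WT, and 289 and 312 CPM, then 210.1 and 268 CPM in CF (log2 fold change -0.24 ± 0.11 SE, and -0.15 without CF day 80 replicate 1).

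Genes of the early fetal programme were mixed, with 16 of 22 lower and a median of -0.20, which was -0.13 without CF day 80 replicate 1 or CF day 65 replicate 2 and -0.39 without CF day 80 replicate 2. In both genotypes 1 was separated upward and 2 downward, against 3.88% and 3.94% of all genes. LIN28B, an RNA-binding protein of early embryonic tissue, was separated in both genotypes but barely detected, at 0.843 and 0.495 CPM at day 65 and 0.227 and 0.3 CPM at day 80 in WT, and 1.12 and 1.67 CPM at day 65 and 0.191 and 0.428 CPM at day 80 in CF (log2 fold change -1.80 ± 0.46 SE). DLK1, an imprinted growth regulator, was 137 and 131 CPM at day 65 and 71 and 71.3 CPM at day 80 in WT, and 877 and 519.6 CPM at day 65 and 179 and 556 CPM at day 80 in CF (-0.92 ± 0.31). It was lower at day 80 in WT in both libraries, while CF day 80 replicate 2 lay within the day 65 range. MEST, also imprinted, was the 1 member separated upward (0.44 ± 0.14).

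Genes of branching signals had no common direction, with 24 of 51 higher and 27 lower. In both genotypes, 3 were separated upward and 4 downward, against 3.88% and 3.94% of all genes, and the members below are given as values of single genes. WNT7B, a ligand made by airway epithelium that acts on the mesenchyme around it, was 36.2 and 29.7 CPM at day 65 and 17 and 17.5 CPM at day 80 in WT. The corresponding CF values were 33.8 and 36.4 CPM at day 65 and 20.7 and 17.7 CPM at day 80. The 4 libraries of each age did not overlap, the log2 fold change was -0.91 ± 0.11 (SE, edgeR adjusted p = 0.0866), and without CF day 80 replicate 1 it was -0.95 and was called (adjusted p = 0.0407). In the hedgehog pathway the effector GLI2 had a log2 fold change of -0.37 ± 0.14 and HHIP, the secreted inhibitor, one of 0.41 ± 0.10, both separated in both genotypes. HHIP was 270.3 and 321 CPM at day 65 and 407 and 415 CPM at day 80 in WT. CF libraries had 294 and 339 CPM at day 65 and 399 and 409 CPM at day 80. TBX5, a factor of lung mesenchyme, had -0.34 ± 0.08, and FGFR2, the epithelial receptor of FGF10 and FGF7, had 0.29 ± 0.10. FGF10 itself was 44.9 and 44.9 CPM at day 65 and 66.5 and 56.7 CPM at day 80 in WT, and 29.3 and 36.1 CPM at day 65 and 34.4 and 52.2 CPM at day 80 in CF, with overlap in CF.

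Smooth muscle genes were 14 of 18 lower with a median of -0.19 (-0.05 in WT and -0.30 in CF), and 4 were separated downward in both genotypes, against 3.94% of all genes. Without CF day 65 replicate 1 that median was -0.10. MYOCD, the cofactor that switches on smooth muscle genes, was separated in both genotypes at 6.85 and 4.62 CPM at day 65 and 3.48 and 4.44 CPM at day 80 in WT, and 26.8 and 30.2 CPM at day 65 and 21.1 and 17.1 CPM at day 80 in CF (log2 fold change -0.56 ± 0.17 SE). Cartilage genes had a median of 0.21, which was -0.10 without CF day 80 replicate 2. MATN4, a gene for a matrix protein placed in this list, was 8.61 and 13.6 CPM at day 65 and 37 and 22.2 CPM at day 80 in WT, and 25 and 12.2 CPM at day 65 and 51.4 and 38.9 CPM at day 80 in CF (1.34 ± 0.27 SE, adjusted p = 0.305). COL2A1, the collagen of cartilage, had -0.06 ± 0.11. Matrix and elastic fibre genes had a median of 0.04, which was -0.11 without CF day 80 replicate 2, -0.01 without CF day 65 replicate 2, 0.07 without WT day 80 replicate 1 or CF day 65 replicate 1, and 0.16 without CF day 80 replicate 1. Among them were COL4A4, a basement membrane collagen, at 0.85 ± 0.15 and LOXL2, a collagen crosslinking enzyme, at -0.38 ± 0.08. Mesenchyme and endothelial lists had medians of 0.12 and -0.02, and the endothelial median was 0.13 in WT and -0.17 in CF. Leaving out 1 library took the former down to 0.06 (without CF day 80 replicate 2) and the latter from -0.07 (without WT day 65 replicate 2) to 0.03 (without CF day 65 replicate 2). PLAT, a plasminogen activator that is not a member of the endothelial list, was 156 and 159.9 CPM at day 65 and 97.1 and 111 CPM at day 80 in WT, and 155 and 169 CPM at day 65 and 99.96 and 105 CPM at day 80 in CF (-0.63 ± 0.08 SE, adjusted p = 0.0929), with the ages apart in all 8 libraries.

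Markers of other cells that a tissue piece can hold were also read. Lists of myeloid, lymphoid, erythroid, nerve and glia and mesothelial cells had negative medians, -0.17, -0.25, -0.34, -0.43 and -0.29, and edgeR called 0 of their members. The myeloid median was -0.27 in WT and 0.01 in CF, the erythroid median 0.02 in WT and -0.44 in CF, and the nerve and glia median -0.14 in WT and -0.91 in CF. Of these, 4 myeloid, 4 lymphoid, 2 erythroid and 1 nerve and glia genes were separated downward in both genotypes, against 3.94% of all genes, and 1 nerve and glia gene upward, against 3.88%. Single libraries moved these medians. The myeloid median was 0.00 without WT day 65 replicate 2 and -0.05 without WT day 80 replicate 2. The lymphoid median reached -0.63 without CF day 80 replicate 2 and -0.51 without the first WT library of either age, and was also more negative, -0.40, without CF day 65 replicate 2. The erythroid median was -0.11 without CF day 80 replicate 1 and -0.13 without CF day 65 replicate 2. For nerve and glia genes it was -0.16 and -0.27 without the first CF library of day 80 and of day 65, and for mesothelium it ranged from -1.17 without CF day 80 replicate 2 to -0.08 without CF day 80 replicate 1. At an unadjusted p below 0.05 edgeR gave 2 lower of 27 myeloid, 3 lower of 25 lymphoid, 3 lower of 22 erythroid, 1 higher and 3 lower of 21 nerve and glia and 0 of 7 mesothelial genes, against 3% lower and 3.25% higher of all genes, and DESeq2 called 1 of all of these, the B cell gene CD79B. Of 7 mast cell genes tested 5 were higher, with a median of 0.29, and 1 was separated upward in both genotypes, against 3.88% of all genes. That gene, TPSB2, a mast cell tryptase, was 0.5 and 2.89 CPM at day 65 and 4.16 and 8.93 CPM at day 80 in WT, and 0.203 and 0.111 CPM at day 65 and 4.06 and 2.6 CPM at day 80 in CF (log2 fold change 3.11 ± 0.73 SE, adjusted p = 0.389). KIT, the most abundant member of that list, had a log2 fold change of -0.04 ± 0.14 (SE). Striated muscle genes were 24 of 28 lower with a median of -0.93, but this rested on single libraries. Their summed level was 61.8 and 105 CPM at day 65 and 49.8 and 55.9 CPM at day 80 in WT, and 1947 and 101 CPM at day 65 and 123 and 1033 CPM at day 80 in CF, and without CF day 65 replicate 1 the median was 0.14 with 16 of 28 higher. Without CF day 80 replicate 2, the other library with a high sum, it was -2.47. Genes of liver, thyroid and thymus summed to 7.29 to 18.5 CPM in the 8 libraries.

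Of the stress lists, hypoxia and glycolysis genes were 27 of 33 lower with a median of -0.16 (-0.10 without CF day 80 replicate 1). Heat shock genes were 9 higher and 11 lower, with a median of -0.30 in WT and 0.20 in CF, and 5 to 14 were higher over the alternative fits. Their summed level was 7856 and 8267 CPM at day 65 and 6476 and 6969 CPM at day 80 in WT, and 6072 and 5473 CPM at day 65 and 9514 and 8070.1 CPM at day 80 in CF. The ages did not overlap in either genotype, with day 80 lower in WT and higher in CF, and this difference in the sum was not tested. Among targets of the glucocorticoid receptor, which drives maturation of the fetal lung, ERRFI1 was 31.6 and 41.2 CPM at day 65 and 58 and 59.4 CPM at day 80 in WT, and 35.7 and 30.9 CPM at day 65 and 69.6 and 61.6 CPM at day 80 in CF (log2 fold change 0.83 ± 0.12 SE, adjusted p = 0.11), whereas FKBP5, PER1 and ZBTB16 were separated downward with -0.55 ± 0.15, -0.72 ± 0.24 and -1.53 ± 0.48. The list as a whole had 7 higher and 9 lower members of 16, with 1 separated upward and 3 downward, against 3.88% and 3.94% of all genes, and medians of 0.06 in WT and -0.17 in CF. Interferon-induced genes were 18 of 27 higher (median 0.21, with 0.03 in WT and 0.29 in CF) and complement and coagulation genes 19 of 33 (median 0.13). Leaving out 1 library gave 0.05 (without CF day 65 replicate 2) to 0.37 (without WT day 65 replicate 2) for the former and 0.04 (without WT day 80 replicate 1) to 0.25 (without the first CF library of either age) for the latter.

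**Figure D4:**
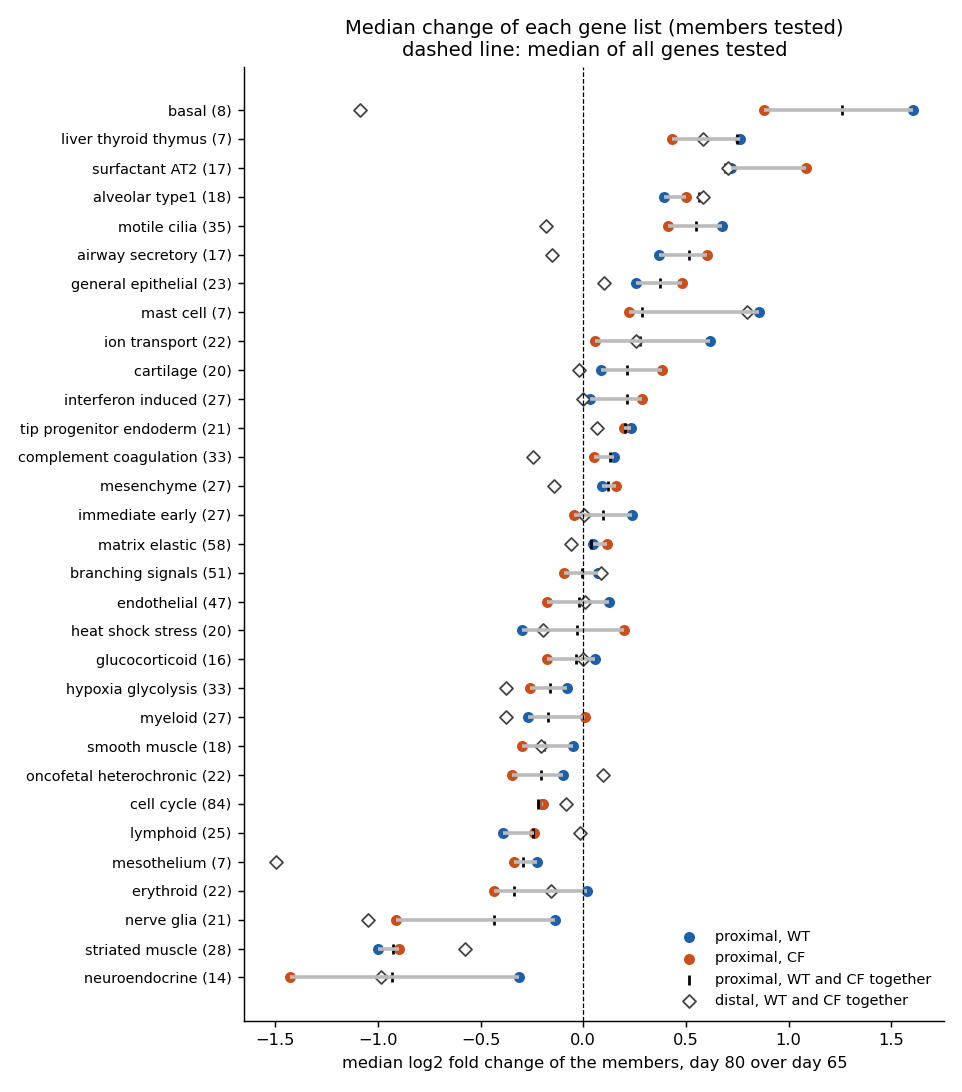
For each of 31 gene lists (number of members tested in brackets) the median log2 fold change, day 80 over day 65, is plotted for proximal lung of WT (blue), of CF (orange) and of both (black line), and for distal lung (open diamond). The surfactant and alveolar type 2 list lies at 0.69 in proximal and 0.71 in distal lung, and the cilia and basal lists lie at 0.55 and 1.26 in proximal but at -0.18 and -1.09 in distal lung.

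At the nominal limits given above, 52 genes passed (0.273%), 40 higher (0.21%) and 12 lower (0.0629%). These 52 were taken after their values were seen and were not all members of a list. All 40 and all 12 had the same direction in both genotypes and were separated in each of them, which the choice of genes by a small p favours. Of the higher genes, KLF5, an epithelial transcription factor, was 41.2 and 39 CPM at day 65 and 63 and 77.4 CPM at day 80 in WT, and 39.7 and 34.8 CPM at day 65 and 64.6 and 67.1 CPM at day 80 in CF (log2 fold change 0.81 ± 0.10 SE, adjusted p = 0.0866). MME, a membrane peptidase, was 109 and 69.8 CPM at day 65 and 183 and 172 CPM at day 80 in WT. In CF it was 96.2 and 88.9 CPM at day 65 and 192 and 167 CPM at day 80. Both had all day 80 libraries above all of day 65. KCNN4, a calcium-activated potassium channel, was 7.85 and 5.7 CPM at day 65 and 24.6 and 39.6 CPM at day 80 in WT, and 4.37 and 2.42 CPM at day 65 and 8.15 and 12 CPM at day 80 in CF, higher at day 80 in each genotype but with CF day 80 near WT day 65. KLF5 and KCNN4 were called without CF day 80 replicate 1 (adjusted p = 0.0407 and 0.0459). SDC4, a heparan sulfate proteoglycan, and SPOCK2, a matrix proteoglycan known from alveolar epithelium, had log2 fold changes of 0.68 ± 0.11 and 0.88 ± 0.15. Of the lower genes, PTGS1, a prostaglandin synthase, was 20.2 and 15.4 CPM at day 65 and 7.45 and 10.2 CPM at day 80 in WT, and 33.8 and 34.7 CPM at day 65 and 16.1 and 19.4 CPM at day 80 in CF. NTM, a neural adhesion molecule, had -1.35 ± 0.21 and AKAP12, a kinase anchor of mesenchymal cells, -0.63 ± 0.12.

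After day 80 most of these genes lay further in the same direction. Comparing means of 4 libraries, 33 of the 40 higher genes were above their day 80 level at term and 39 above their day 65 level, and 10 of the 12 lower genes were below their day 80 level at term. Over all genes higher at day 80, 5729 of 9463 were above that level at term and 6415 above their day 65 level, and over all genes lower at day 80, 6044 of 9609 were below that level at term. SFTPB reached 559 and 581 CPM in WT and 778 and 692 CPM in CF at day 100, and 3762 and 5130.5 CPM in WT and 3430.5 and 2507 CPM in CF at term (day 147). The 2 WT libraries of day 100 carry the same animal label, so they may be 1 animal, and CF day 100 replicate 2 carries the label of WT day 65 replicate 2. The WT animals of term were born naturally and sampled after birth, and the study names time after birth as a factor in the term lung. Levels at term may therefore include changes after birth. TMEM132C was 11 to 16.8 CPM in the 4 libraries of day 100 and 0.861 to 1.59 CPM at term. SFTPC did not follow this course evenly. It was 513 to 902 CPM at day 100, within or below its range of 654 to 978 CPM at day 80, and 4179.6 to 18468 CPM at term. The cell cycle sum was 3312 to 3719 CPM at day 100 and 832 to 2187 CPM at term. The neuroendocrine sum overlapped between day 65, at 203 to 275 CPM, and day 80, at 173 to 267 CPM. It was 79.9 to 128 CPM at day 100 and 14.6 to 17.8 CPM at term. At days 65 and 80 most of it was the gene UCHL1, at 121 to 220 CPM, with a log2 fold change of -0.08 ± 0.17 (SE). No test was run on the later ages.

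**Figure D5:**
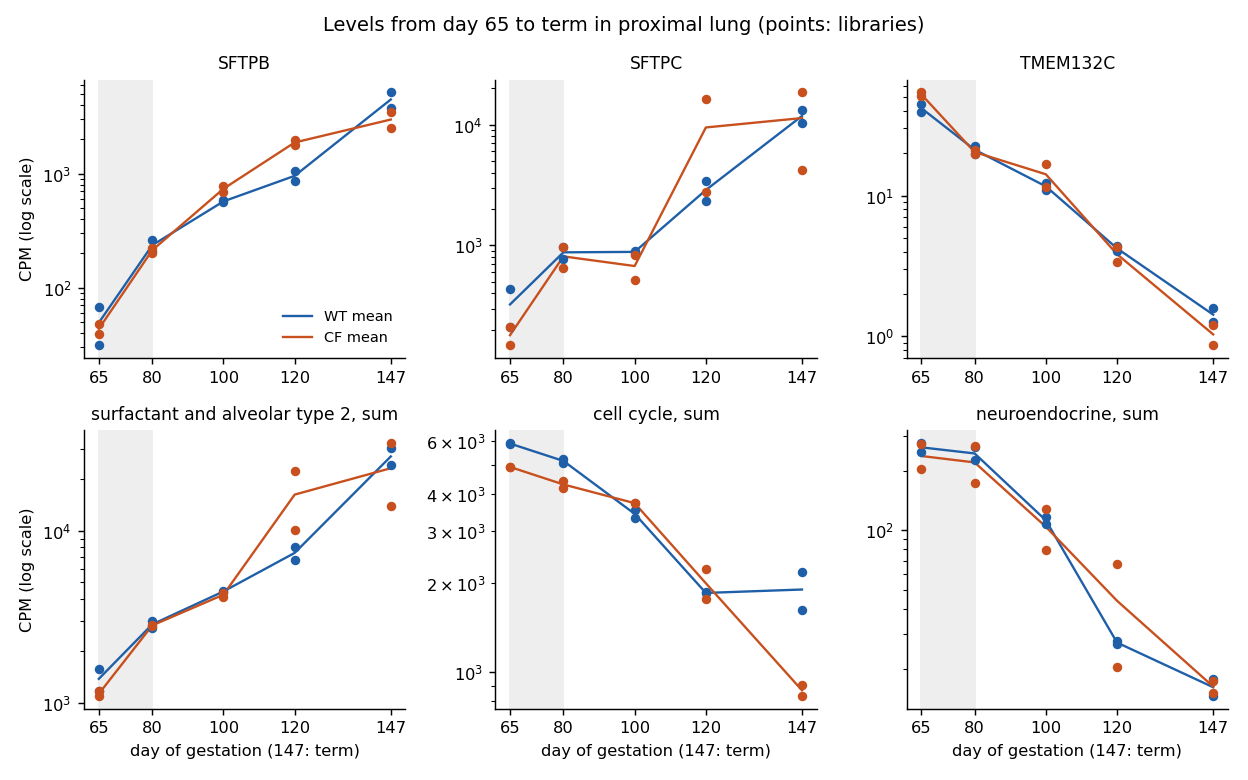
CPM (log axis) of 3 genes and of the sums of 3 gene lists in proximal lung is plotted against day of gestation, with points for libraries, lines through the means of WT (blue) and CF (orange) and grey between day 65 and day 80. SFTPB went from 31.2 to 67.7 CPM at day 65 to 2507 to 5130.5 CPM at term, and TMEM132C from 39.2 to 54.1 CPM to 0.861 to 1.59 CPM. The WT animals of term were sampled after birth.

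Whether WT and CF differed in their change was tested by the interaction of genotype and age. edgeR called 0 of 19072 genes at an adjusted p of 0.05, with 387 at an unadjusted p below 0.05 (2.03%), and DESeq2 called 9. For SFTPB the CF change minus the WT change was 0.04 ± 0.45 (SE) on the log2 scale and for TMEM132C -0.38 ± 0.21, with unadjusted p of 0.938 and 0.113, so neither passed the test. CLDN18 had 1.41 ± 0.34 (unadjusted p = 0.00376, adjusted p = 1). The 6 genes with the smallest p were DNAJB1, ASPA, LOC494436, HSPA6, HSPA1A and LOC105616860, all with an adjusted p of 0.865 to 0.867. HSPA1A, an inducible heat shock chaperone, was 346 and 1178 CPM at day 65 and 367 and 399.9 CPM at day 80 in WT, and 207 and 253 CPM at day 65 and 2457 and 2604 CPM at day 80 in CF. In CF both day 80 libraries were far above day 65, and in WT the highest library was day 65 replicate 2. LOC494436 overlaps HSPA1A on chromosome 20 in the annotation and had similar values, so the reads of the 2 cannot be told apart and both are uncertain. Without WT day 65 replicate 1 these 2 genes were called (adjusted p = 0.00898), but WT day 65 then held only replicate 2, the highest WT library, and its spread was assumed to be that of the other groups.

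The same ages were compared in distal lung of the same 8 animals. There edgeR called 0 of 18812 genes, with 3341 at an unadjusted p below 0.05 (17.8%). SFTPB was 28.3 and 51.02 CPM at day 65 and 255 and 115 CPM at day 80 in WT, and 34 and 36 CPM, then 155 and 169 CPM in CF, with a log2 fold change of 2.21. TMEM132C and GPRC5A had distal values of -1.17 and 2.04, close to those of proximal lung. All 52 genes above had the same direction in distal lung, which came from the same animals and is not an independent set. Over all genes, the direction was the same for 4265 of 9232 higher and 5107 of 9329 lower genes. The difference between the regions was tested with the animal as a block, and 0 of 19539 genes were called, with 840 at an unadjusted p below 0.05 (4.3%), while DESeq2 called 22, all with the higher change in proximal lung. The 6 genes with the smallest p were SOX21, LOC101117431, LOC101115988, TSNAXIP1, CHI3L1 and LOC101108654 (adjusted p = 0.61 each). LOC101108654 was called without WT day 65 replicate 2 (adjusted p = 0.0335), a fit in which 1 WT animal of day 65 remained and was assumed to vary like the others. For SOX21, a transcription factor of airway epithelium, the proximal change exceeded the distal change by 1.35 ± 0.23 (SE). Its distal levels were 13.4 and 2.77 CPM at day 65 and 2.48 and 5.26 CPM at day 80 in WT, and 5.51 and 4.67 CPM, then 1.83 and 1.75 CPM in CF, and its proximal levels were 1.71 to 7.68 CPM with overlap between the ages.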

How the data were processed

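RNA was extracted with TRIzol from frozen pieces of fetal lung and sequenced as 100 bp paired reads after oligo dT priming. The authors deposited raw counts per gene, made with STAR (version 2.6 in the submitters' processing notes, a later version in the study's methods) and featureCounts 1.6.3 on Oar_v4.0. The counting of strand and of multiply mapped reads is not given in the sources used here. Of 24478 genes, 19072 had enough counts to be tested (edgeR's filter by expression, minimum count 10, minimum total 15). Libraries were scaled by TMM and fitted by edgeR 4.0.16 (R 4.3.3, limma 3.58.1) with the quasi-likelihood test, genotype plus age, for 8 libraries in 4 groups of 2. DESeq2 1.42.0 was an alternative. Genes were called at an adjusted p up to 0.05, and the limits of the study were an adjusted p of 0.001 and a log2 fold change of 0.58. P-values set a difference against the spread between these libraries, and the CF libraries come from 1 cell line. CPM are counts per 1000000 of the scaled library size.

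The interaction of genotype and age, and that of region and age with the animal as a block, were fitted in the same way (distal lung, 18812 genes; both regions, 19539). The members and gene lists were chosen with earlier results of these data known. Genes were named if called (up to 12 in each direction, average log2 CPM of 1 or more, ages apart in all libraries), if they were called members or defining members of a list, if they were followed by the study, or if they had 1 of the 6 smallest p in an interaction. The 52 genes with a small unadjusted p, and list members outside this rule, were named after their values were seen. Scripts were tested on simulated data with 200 changed genes. A further table with 20 columns, all 20 equal to columns used here, was not used, and 0 columns were left unmapped. Some list members are counted but not reported by name here.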

Additional observations from a re-analysis of the deposited data

Results flagged for a closer look

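Among the genes chosen for naming and the heat shock list there were 6 genes in which every CF library of day 80 lay on one side of those of day 65 and every WT library on the other. Over all genes tested this held for 569 of 19072 (2.983%), and over the members of any list for 24 of 779. In the heat shock list it was 4 of 20, which are DNAJB1, HSPA6, HSPH1 and CHORDC1, of which the last 2 were named after their values were seen. For each of the 6 the difference between the changes of CF and WT was tested in edgeR's interaction and did not pass the adjusted p of 0.05.

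DNAJB1, a cochaperone of heat shock proteins, was 113 and 100.1 CPM at day 65 and 68.4 and 75.1 CPM at day 80 in WT, and 64.5 and 63.5 CPM at day 65 and 141 and 112 CPM at day 80 in CF. The CF change exceeded the WT change by 1.56 on the log2 scale (adjusted p = 0.865). HSPH1, a cochaperone of HSP70, had a difference of 0.93 (unadjusted p = 0.002, adjusted p = 1), with 96.03 and 94.04 CPM at day 65 and 60.9 and 61 CPM at day 80 in WT, and 75.7 and 76.7 CPM at day 65 and 103 and 82.3 CPM at day 80 in CF. CHORDC1, which binds HSP90, had a difference of 0.49 (unadjusted p = 0.026, adjusted p = 1), with 96.4 and 97.1 CPM at day 65 and 82.4 and 77.02 CPM at day 80 in WT, and 91.03 and 101 CPM at day 65 and 112 and 109 CPM at day 80 in CF.

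HSPA6, an inducible heat shock chaperone, had a difference of 4.30 (adjusted p = 0.865) and was 2.11 and 2.97 CPM at day 65 and 0.681 and 1.32 CPM at day 80 in WT, and 0.894 and 0.915 CPM at day 65 and 5.38 and 8.75 CPM at day 80 in CF. ASPA, an aminoacylase, had a difference of 3.74 (adjusted p = 0.865), and was 6.24 and 5.17 CPM at day 65 and 1.59 and 1.68 CPM at day 80 in WT, and 0.811 and 0.536 CPM at day 65 and 2.87 and 2.26 CPM at day 80 in CF.

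ANO1, a calcium-activated chloride channel, was 17.8 and 24.9 CPM at day 65 and 32.9 and 31.6 CPM at day 80 in WT, and 56.5 and 55.5 CPM at day 65 and 49.3 and 54.7 CPM at day 80 in CF. Its difference, CF minus WT, was -0.70 (unadjusted p = 0.0241, adjusted p = 1).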

How the results depend on the processing

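The number of genes called between day 80 and day 65, 2 by the quasi-likelihood test, was 229 by DESeq2, 52 at the unadjusted limits, 13 with all 20 proximal libraries in the fit and 4 with the bias-adjusted quasi-likelihood, and the 2 genes were among those of DESeq2, of the 20 libraries and of the bias-adjusted test. It was 1 with libraries of a shared label stem summed, and 0 against a log2 fold change of 0.58, with 1 mean per genotype and day, in WT alone and in CF alone. Replicate numbers did not pair the libraries (correlations of deviations from -0.213 to 0.0656), and with the replicate block 0 genes were called, with an adjusted p of 0.0745 for SFTPB and TMEM132C. Leaving out 1 library gave 0 to 15 genes, with 15 without CF day 80 replicate 1, 4 without WT day 65 replicate 2, 1 without WT day 65 replicate 1 and 0 without any of the other 5. At the limits of the study, where the quasi-likelihood test called 0, DESeq2 called 53 and the unadjusted limits 52, and 0 to 0 were called without 1 library. For the difference between CF and WT DESeq2 called 9 and the fits without 1 library 0 to 2, and for that between regions 22 and 0 to 1. The sign turned for some genes, none of them called. HSPA1A was -0.996 in WT alone, ANO1 -0.11 and CEBPA -0.35 in CF alone, against positive values in both genotypes together, and HSPH1 was 0.28 and CHORDC1 0.20 in CF alone, against negative values. ASPA, DNAJB1, HSPA6, LOC494436, NAPSA, SLC6A14, COL2A1 and SOX21 also had opposite signs in WT and CF. Without 1 library CEBPA was -0.50 (without WT day 80 replicate 1) to 0.39 and CHORDC1 -0.12 to 0.035 (without WT day 80 replicate 2, and also positive without either WT library of day 65). The cause of these differences was not tested. SFTPB had an adjusted p from 3.35e-18 to 0.931 over the alternatives, always with a positive value. Depth was lower in WT than in CF, and with libraries thinned to equal depth 2 genes were called.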
